A study of Homo sapiens with 12 samples.

Results

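The FOS, FOSB, JUN, JUNB, EGR1, IER2 and NR4A1 genes are immediate early genes, and KLF2, KLF4 and KLF6 are members of the Krüppel-like factor (KLF) family, several of which answer to the same stimuli. These 10 genes were taken by symbol from a table of read counts for 56638 gene symbols, and all 10 were among the 19130 genes with enough counts to test. They were followed in NT2/D1, a line of human embryonal carcinoma cells that is pluripotent and differentiates when given all-trans retinoic acid (ATRA). Stranded mRNA-seq libraries (TruSeq) had been made from 4 groups of 3 libraries each. The groups were PRMT6 knockout cells with 1 µM ATRA for 3 days, control cells with the same ATRA treatment, untreated knockout cells and untreated control cells. PRMT6 is an arginine methyltransferase that dimethylates histone H3, and the comparison asks how its loss changes expression in the pluripotent state and under retinoic acid. The titles of all knockout libraries carry 1 line name, KO-2, so effects of PRMT6 loss and of that line cannot be told apart. No label tells whether the replicates were grown as separate cultures, and p-values therefore cover only library-to-library spread, part of which may be technical. In bulk RNA, fewer cells of a type and less RNA per cell cannot be told apart.

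Immediate early genes are transcribed within minutes of a growth factor, serum or stress signal, without new protein synthesis, when mitogen-activated kinases act on factors already bound to their promoters. FOS and FOSB proteins pair with JUN and JUNB proteins to form the AP-1 transcription factor, whereas EGR1, NR4A1 and the KLF proteins bind DNA through zinc fingers. Their mRNAs are short-lived. KLF2 and KLF4 are also known from mouse embryonic stem cells, where they help to sustain pluripotency, and KLF4 is one of the factors used to reprogram somatic cells.

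The libraries held 25469881 to 60394918 counts each. Levels are given in CPM, counts scaled to a common library size with edgeR's TMM factors, and 3 counts corresponded to 0.0433 to 0.128 CPM. PRMT6 had 0 to 2 counts in every knockout library, against 15.9 to 29.9 CPM in control libraries with ATRA and 1.94 to 22.4 CPM in untreated control libraries. Several libraries stood apart from others of their label. The library labelled control ATRA 2 went against that label at 4 direct retinoic acid targets, a set chosen after the values were seen: CYP26A1, the retinoic acid hydroxylase, had 0.052 CPM there, against 256 and 12.4 CPM in control ATRA 1 and 3. HOXB1 had 1.17 CPM there, against 72.8 and 39.2 CPM, and RARB and DHRS3 were likewise lowest in it within its group. Of the pluripotency markers, it held NANOG at 18.1 CPM, against 46.9 to 109 CPM in untreated controls, but POU5F1 at 895 CPM, against 520 to 1500 CPM. Knockout ATRA 2 held CYP26A1 at 1020 CPM and HOXB1 at 212 CPM, against 12.7 and 11 CPM and 19.7 and 21.2 CPM in knockout ATRA 1 and 3. RARB was closer there, at 20.7 CPM against 19.6 and 17.5 CPM. Knockout ATRA 1 and 3 were close to each other, with a chi-square of 1.91 per gene, as were untreated knockout 1 and 2, with 9.01 per gene, while all other replicate pairs had 78.1 to 416. Summed CPM of 12 stromal marker genes was 14800, 2810 and 14800 in knockout ATRA 1, 2 and 3 and 15500, 16200 and 3060 in untreated knockout 1, 2 and 3, against 309 to 2020 in control libraries with ATRA and 455 to 712 in untreated control libraries, of which 2 held no count of FAP. Summed CPM of 12 pluripotency markers of NT2/D1 was 2520 to 3700 in knockout and 3760 to 5140 in control libraries with ATRA, and 5380 to 8720 in knockout and 5530 to 8230 in control libraries without it. ZFP42 had no count in control ATRA 2. Of the 12 stromal markers, 3 were called higher and 0 lower in the knockout with ATRA and 8 higher and 1 lower untreated, and of 11 pluripotency markers tested, 0 were higher and 1 lower with ATRA and 0 higher and 2 lower untreated. Over all genes tested, 3.27% were called higher and 4.24% lower with ATRA, and 13% higher and 21.9% lower untreated. The part of these library differences in the results below was not tested.

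Promoter sequences are shown for 4 of the genes. FOS and EGR1 varied from library to library without a call, and NR4A1 and KLF2 were the genes called lower in the knockout. KLF2 also varied from library to library, with an SD of log2 CPM of 2.53, against 1.38 for EGR1 and 0.835 for FOS. Each sequence is the 250 bases before 1 start of the gene in RefSeq (GRCh38.p14), the first listed, 5′ to 3′ on the strand of the gene. Capitals mark the CArG box, which serum response factor binds, the core TGACG of the cyclic AMP response element (CGTCA on the other strand), the TATA box (TATAAA) and the GC box GGGCGG, which reads as CCGCCC where it lies on the other strand.
FOS, chr14:75278578-75278827, plus strand: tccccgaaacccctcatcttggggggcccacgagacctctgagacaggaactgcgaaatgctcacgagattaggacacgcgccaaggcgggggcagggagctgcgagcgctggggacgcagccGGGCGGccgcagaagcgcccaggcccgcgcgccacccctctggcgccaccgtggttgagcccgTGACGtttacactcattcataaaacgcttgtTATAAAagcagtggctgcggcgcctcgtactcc
EGR1, chr5:138465229-138465478, plus strand: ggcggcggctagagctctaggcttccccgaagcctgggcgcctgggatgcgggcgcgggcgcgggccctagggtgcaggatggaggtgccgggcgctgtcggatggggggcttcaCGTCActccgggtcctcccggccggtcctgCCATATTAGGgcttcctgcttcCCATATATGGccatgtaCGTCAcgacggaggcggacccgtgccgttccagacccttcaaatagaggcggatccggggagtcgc
NR4A1, chr12:52022582-52022831, plus strand: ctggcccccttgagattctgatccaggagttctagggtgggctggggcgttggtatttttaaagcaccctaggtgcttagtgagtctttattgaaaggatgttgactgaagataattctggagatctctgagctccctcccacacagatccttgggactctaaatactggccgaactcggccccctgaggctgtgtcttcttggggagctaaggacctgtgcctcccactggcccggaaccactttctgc
KLF2, chr19:16324576-16324825, plus strand: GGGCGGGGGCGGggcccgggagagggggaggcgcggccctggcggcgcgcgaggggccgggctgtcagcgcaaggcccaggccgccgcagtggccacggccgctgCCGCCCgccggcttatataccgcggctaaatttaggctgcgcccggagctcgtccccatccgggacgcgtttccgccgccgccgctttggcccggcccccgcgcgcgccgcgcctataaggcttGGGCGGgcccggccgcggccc
All 10 genes matched a RefSeq promoter, and motifs were searched on both strands. The CArG box was found in 1 of 10, in EGR1, with matches that begin 105 and 83 bases before the start, and in 1.16% of 35116 RefSeq promoters. TGACG was found in 7 of 10 and in 21.2% of all promoters, and the full element TGACGTCA, which contains it, in 0 of 10 and in 1.65%. TATAAA was found in 3 of 10, namely FOS, FOSB and JUNB, 33, 30 and 31 bases before the start, and in 10.7% of all promoters. GGGCGG was found in 7 of 10 and in 42.6%, and CACCC, the core of sites that KLF proteins bind, in 7 of 10 and in 54.7%. The AP-1 element TGANTCA and the nuclear receptor core AGGTCA were found in 0 of 10, and in 6.57% and 12.1% of all promoters. The NR4A1 window held none of the capitalised motifs. As for the other genes, only 1 start was used, so promoters at any other start of NR4A1 are not described here. A match describes these letters only. Sites outside the 250 bases were not searched, so a motif not found here may lie elsewhere.

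The 10 genes spanned a wide range of levels. Per gene length, the mean over 12 libraries was 39.2 RPKM (CPM per kilobase of gene) for JUN, 38.1 for IER2, 24.2 for KLF2, 14.4 for EGR1, 10.5 for KLF6, 9.19 for FOS, 7.24 for JUNB, 6.43 for NR4A1, 2.43 for KLF4 and 0.421 for FOSB. For 7 of the 9 pairs of neighbours in this order the gap in mean log2 RPKM was smaller than the larger SD over libraries. The exceptions were the gaps between NR4A1 and KLF4 and between KLF4 and FOSB. Other genes are annotated on the opposite strand over FOSB, JUNB, IER2, NR4A1 and KLF4, and whether the counting used the strand is not stated, so reads of such partners could be counted with these 5.

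**Figure D1:**
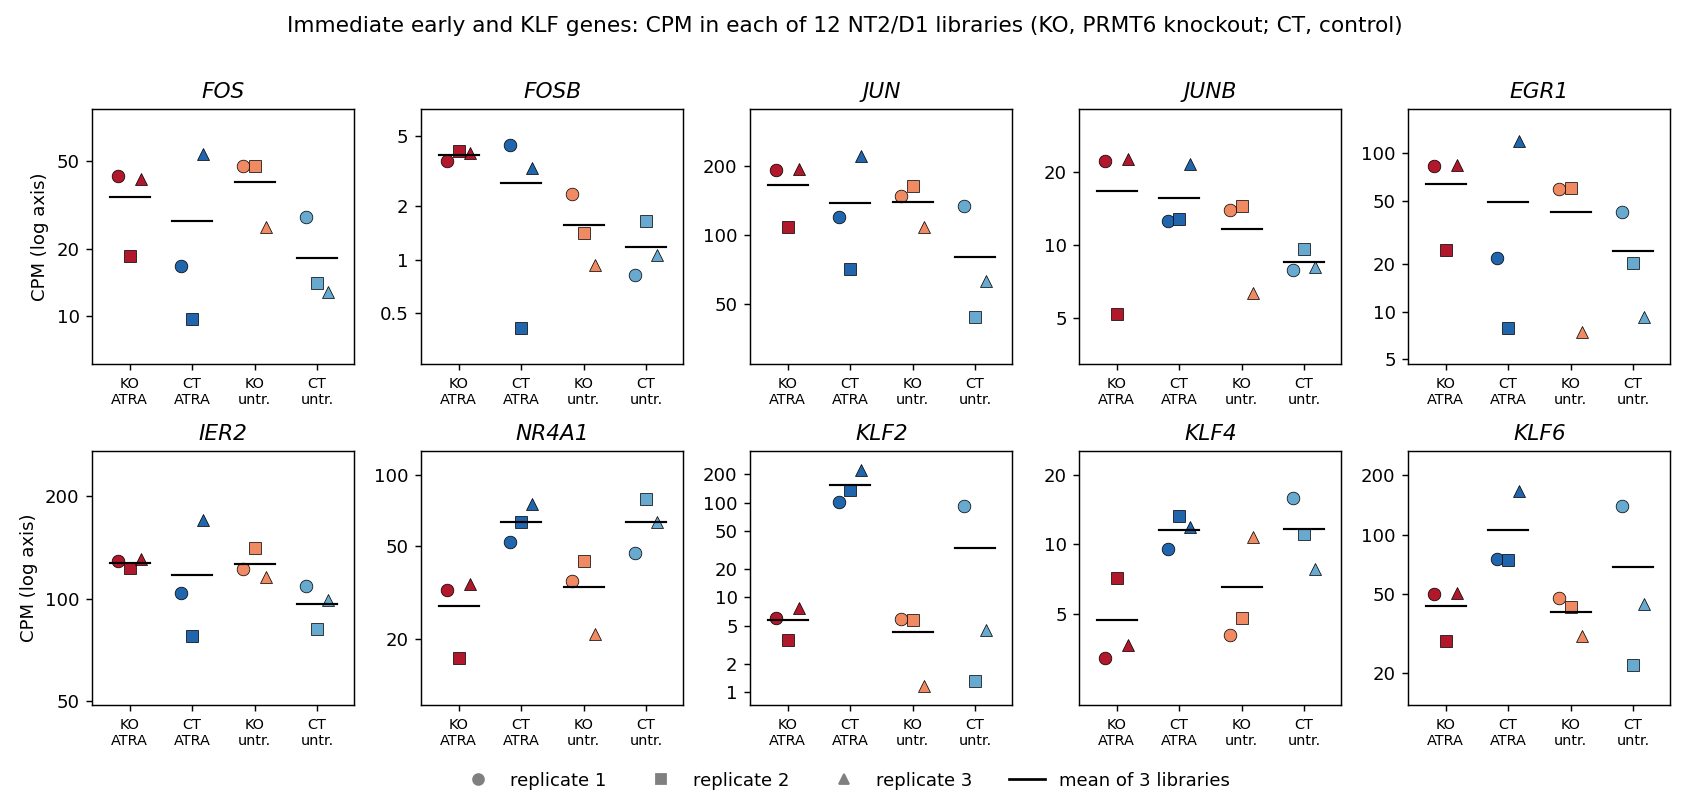
CPM (log axis) of each of the 10 genes in every library, with knockout (KO) red or orange and control (CT) blue, circles, squares and triangles for replicates 1, 2 and 3, and a line at the mean of 3 libraries. With ATRA, KLF2, KLF4, KLF6 and NR4A1 had all knockout points below all control points, and untreated control library 1 held KLF2 at 93.0 CPM, against 1.30 and 4.53 CPM in the other untreated controls.

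In knockout cells with ATRA, set against control cells with ATRA, KLF2 and NR4A1 were lower, and none of the 10 genes was called higher. KLF2, a zinc finger factor best known from endothelial and T cells, had 6.06, 3.55 and 7.80 CPM in knockout ATRA 1, 2 and 3. It had 101, 136 and 221 CPM in control ATRA 1, 2 and 3. Every knockout library was thus far below every control library. KLF2 was 26.3-fold lower in the knockout, a log2 fold change of -4.72 ± 1.25 (SE) with an adjusted p of 0.0406 (edgeR quasi-likelihood test, Benjamini-Hochberg over 19130 genes). NR4A1, which encodes the orphan nuclear receptor Nur77, had 32.3, 16.7 and 34.3 CPM in these knockout libraries. It had 52.1, 63.2 and 75.2 CPM in these control libraries, and the groups did not overlap. Its level was 2.29-fold lower, a log2 fold change of -1.19 ± 0.34 with an adjusted p of 0.0494 (edgeR). These 2 of 10 genes called compare with 7.51% of all genes tested, 3.27% higher and 4.24% lower.

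Both calls were close to the threshold, and the log2 fold changes stayed below 0 in 18 of 18 alternative settings. The groups did not overlap and the settings refit the same libraries, so that sign could hardly change. KLF2 was called in 8 of the 18 settings and NR4A1 in 3. Without the library labelled control ATRA 2, KLF2 was at -4.79 (adjusted p = 0.0778, edgeR) and NR4A1 at -1.2 (adjusted p = 0.108). Leaving out any 1 of the 6 libraries ended both calls, with KLF2 between -4.99 and -4.32 and NR4A1 between -1.37 and -0.93. With the near-identical knockout libraries summed, KLF2 was at -4.85 (adjusted p = 0.199) and NR4A1 at -1.34 (adjusted p = 0.168). With the replicate number as a block, KLF2 was at -4.88 (adjusted p = 0.0509) and NR4A1 at -1.18 (adjusted p = 0.0886).

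The other KLF members were also lower in every knockout library with ATRA than in every control library with ATRA. KLF4 had 3.22, 7.16 and 3.69 CPM in the knockout libraries, against 9.60, 13.3 and 11.9 CPM in the control libraries. KLF6, a broadly expressed family member, had 50, 29.1 and 50.9 CPM in the knockout libraries, against 75.6, 74.0 and 166 CPM in the control libraries. Neither passed the test. KLF4 had a log2 fold change of -1.31 ± 0.43 (adjusted p = 0.0793, edgeR), and KLF6 one of -1.28 ± 0.56 (adjusted p = 0.155, edgeR). KLF4 was called with DESeq2 (-1.26, adjusted p = 0.0355), without a filter on low counts (-1.31, adjusted p = 0.043) and with the GC trend removed (-1.50, adjusted p = 0.0498). It was also called with knockout ATRA 2 and untreated knockout 3 left out together (-1.75, adjusted p = 0.0285), and KLF6 was called without a filter (-1.29, adjusted p = 0.0434). Without control ATRA 2 KLF4 was at -1.2 (adjusted p = 0.199) and KLF6 at -1.48 (adjusted p = 0.21). In all, 4 of 10 genes had groups that did not overlap, beside 34.6% of all genes tested.

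The AP-1 genes, EGR1 and IER2 overlapped between knockout and control cells with ATRA. FOS had 42.7, 18.5 and 41.4 CPM in knockout ATRA 1, 2 and 3 and 16.8, 9.69 and 53.4 CPM in control ATRA 1, 2 and 3. EGR1, a zinc finger factor induced by serum, had 83.0, 24.4 and 84.2 CPM in the knockout libraries and 21.9, 7.90 and 119 CPM in the control libraries. JUN had 191, 108 and 193 CPM in the knockout libraries and 120, 70.9 and 220 CPM in the control libraries. Of these 6 libraries, control ATRA 2 had the lowest and control ATRA 3 the highest value of each of these 3 genes, so a single group held both ends of the range. JUNB, an AP-1 subunit that can restrain JUN, had 22.3, 5.19 and 22.7 CPM in the knockout libraries and 12.6, 12.8 and 21.6 CPM in the control libraries. FOSB had 3.62, 4.08 and 3.99 CPM in the knockout libraries and 4.40, 0.416 and 3.27 CPM in the control libraries. IER2, a small nuclear protein of the early response, had 129, 123 and 131 CPM in the knockout libraries and 104, 77.7 and 170 CPM in the control libraries. The knockout values of IER2 and FOSB lay within the range of the control values. The 6 log2 fold changes ran from 0.10 for JUNB to 0.54 for FOSB, with adjusted p-values of 0.605 to 0.918 (edgeR). Their 95% intervals were wide, from -1.65 to 2.38 for EGR1 and from -0.42 to 0.68 for IER2, so changes inside them were not detectable here. Without control ATRA 2 the values of FOS, JUN, JUNB, EGR1 and IER2 turned to -0.039, -0.052, -0.030, -0.14 and -0.10, and FOSB was at 0.025. Without control ATRA 3 the values were larger, at 1.40 for FOS (adjusted p = 0.0854), 0.81 for JUN, 0.43 for JUNB, 2.13 for EGR1 (adjusted p = 0.149), 0.52 for IER2 and 0.73 for FOSB. The median log2 fold change of the 10 genes was 0.11, beside -0.059 over all genes tested.

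**Figure D2:**
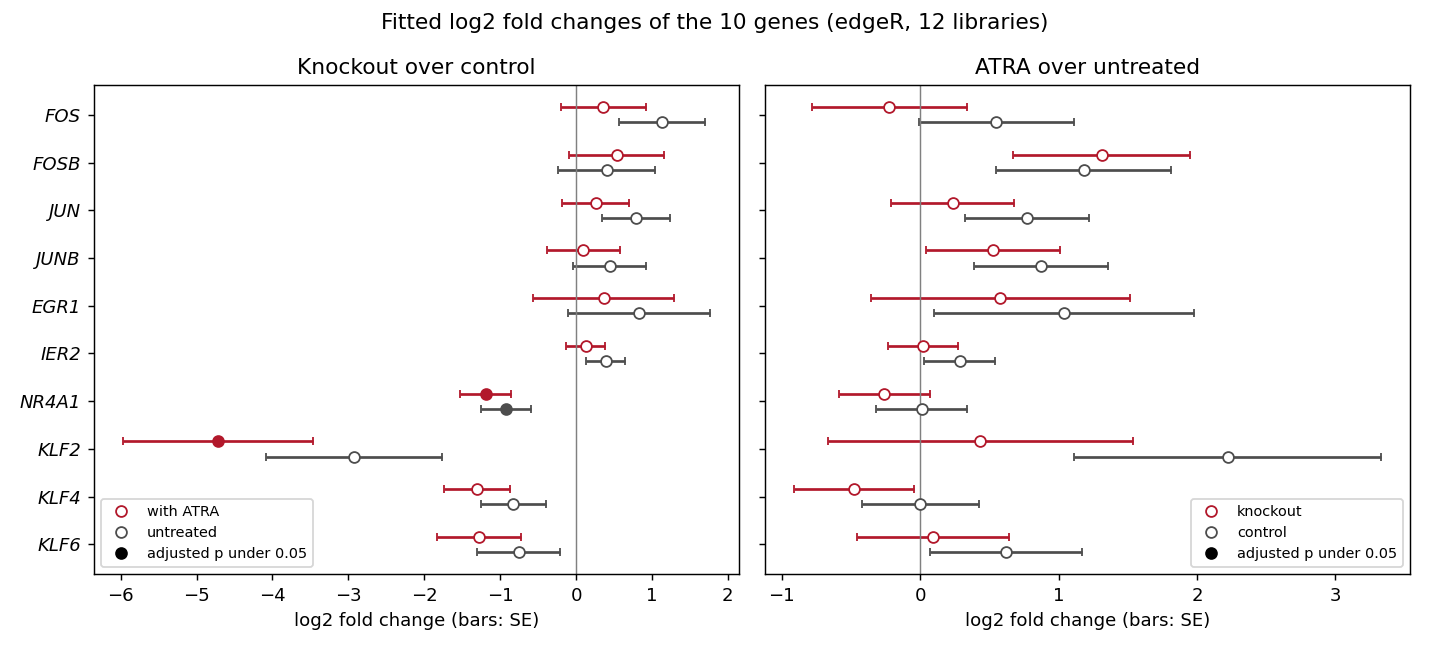
Log2 fold changes with standard errors for the 10 genes, knockout over control on the left (red with ATRA, grey untreated) and ATRA over untreated on the right (red knockout, grey control). Filled symbols mark an adjusted p under 0.05. NR4A1 was called in both knockout comparisons, KLF2 with ATRA only at -4.72, and no gene in the ATRA comparisons.

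In untreated cells NR4A1 was again lower in the knockout, and none of the other 9 genes passed the test. NR4A1 had 35.4, 43.3 and 21.0 CPM in untreated knockout 1, 2 and 3, against 46.4, 79.6 and 63.3 CPM in untreated control 1, 2 and 3. The groups did not overlap, although the highest knockout value and the lowest control value were close. Its log2 fold change was -0.93 ± 0.33, a 1.9-fold lower level, with an adjusted p of 0.0473 (edgeR). This 1 of 10 compares with 34.9% of all genes tested, 13% higher and 21.9% lower. All-gene counts depended on base composition: 2480 genes were higher and 4196 lower, against 1649 and 1665 once each library's trend with GC content was removed, and the median log2 fold change over all genes was then 0.012 in place of -0.11. NR4A1 stayed called after that removal. Rank correlations of log2 CPM, centred on the mean of 12 libraries, with GC content ran from 0.222 to 0.617 in knockout libraries. In control libraries they ran from -0.496 to 0.097, the highest in control ATRA 3. The trend thus went with genotype, and its removal may also remove part of a genotype difference. The NR4A1 call was lost when untreated control 2 (-0.73, adjusted p = 0.138, edgeR), control 3 (-0.93, 0.103), knockout 1 (-0.97, 0.0997), knockout 2 (-1.16, 0.057) or knockout 3 (-0.68, 0.157) was left out. It was also lost with the near-identical knockout libraries summed (-1.05, adjusted p = 0.0982), with relative log expression scaling (-0.85, adjusted p = 0.0631), fitted on the compared groups alone (-0.85, adjusted p = 0.0741), with untreated knockout 3 and knockout ATRA 2 left out together (-0.68, adjusted p = 0.0974) and with the replicate block (-0.91, adjusted p = 0.0766).

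KLF2 differed among untreated control libraries more than between genotypes. It had 5.90, 5.76 and 1.16 CPM in untreated knockout 1, 2 and 3, and 93.0, 1.30 and 4.53 CPM in untreated control 1, 2 and 3. The highest control library was 71.3-fold above the lowest, and the other control values lay among the knockout values. The log2 fold change was -2.93 ± 1.16 (adjusted p = 0.066, edgeR), and without untreated control 1 it turned to 0.56 (adjusted p = 0.514); without untreated control 2 it was -3.50 (adjusted p = 0.0224). KLF6 had the same high library, with 47.8, 43.3 and 30.7 CPM in untreated knockout cells and 139, 21.9 and 44.5 CPM in untreated control cells. Its log2 fold change of -0.76 ± 0.55 (adjusted p = 0.295, edgeR) turned to 0.30 without untreated control 1. KLF4 had 4.04, 4.81 and 10.8 CPM in untreated knockout cells and 15.9, 11.1 and 7.83 CPM in untreated control cells. Here the third knockout library was the exception, and the log2 fold change of -0.83 ± 0.43 (adjusted p = 0.146, edgeR) was -1.38 without it (adjusted p = 0.0383).

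Among the AP-1 genes, FOS had 47.1, 47.5 and 25.2 CPM in untreated knockout 1, 2 and 3 and 27.8, 14.0 and 12.8 CPM in untreated control 1, 2 and 3. JUN had 147, 163 and 108 CPM in the knockout libraries and 134, 44 and 63.1 CPM in the control libraries. In both, only untreated control 1 reached the knockout range. The log2 fold changes were 1.13 ± 0.57 for FOS (adjusted p = 0.132, edgeR) and 0.80 ± 0.45 for JUN (adjusted p = 0.178, edgeR). Without untreated control 1, JUN was at 1.38 (adjusted p = 0.0261), and fitted on the compared groups alone, FOS was at 1.2 (adjusted p = 0.0448). IER2 had 122, 141 and 116 CPM in the knockout libraries and 109, 81.3 and 98.8 CPM in the control libraries, without overlap, and a log2 fold change of 0.39 ± 0.25 (adjusted p = 0.241, edgeR). IER2 and NR4A1 were the 2 of 10 genes whose groups did not overlap, beside 47.9% of all genes tested. EGR1 had 60, 60.8 and 7.49 CPM in the knockout libraries and 42.9, 20.4 and 9.27 CPM in the control libraries. Its lowest value of all was thus in the third knockout library, and its log2 fold change was 0.83 ± 0.94 (adjusted p = 0.507, edgeR). JUNB had 14.0, 14.5 and 6.34 CPM in the knockout libraries and 7.90, 9.67 and 8.10 CPM in the control libraries. FOSB had 2.35, 1.41 and 0.942 CPM in the knockout libraries and 0.827, 1.66 and 1.07 CPM in the control libraries. The log2 fold changes of JUNB and FOSB were 0.44 and 0.40, with adjusted p-values of 0.491 and 0.638 (edgeR). The median log2 fold change of the 10 genes was 0.40, beside -0.11 over all genes tested.

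With ATRA set against untreated cells, none of the 10 genes was called in either genotype. In control cells all 10 log2 fold changes were above 0, from 0.0019 for KLF4 to 2.22 for KLF2, although those of NR4A1 and KLF4 turned to -0.13 and -0.066 with the GC trend removed. Of the 10, 0 passed the edgeR test, with 0 also at an unadjusted p under 0.05 and 0 by DESeq2 and by limma-voom. Over all genes tested, 0.115% were called, 0.0993% higher and 0.0157% lower. KLF2 had 101, 136 and 221 CPM in control libraries with ATRA, against 93.0, 1.30 and 4.53 CPM in untreated control libraries. The lowest value with ATRA was only just above untreated control 1. Its log2 fold change of 2.22 ± 1.11 (adjusted p = 0.277, edgeR) was 5.71 without untreated control 1 (adjusted p = 0.00934). KLF6 then reached 1.67 (adjusted p = 0.037), against 0.62 with all libraries. The fit without untreated control 1 called 2457 of 19748 genes tested, against 22 of 19130 with all libraries. JUNB was the other gene whose control groups did not overlap, at 0.87 (adjusted p = 0.323, edgeR), and these 2 of 10 compare with 14.8% of all genes tested. Without the library labelled control ATRA 2, FOSB was at 1.69 (adjusted p = 0.0258, edgeR), against 1.18 with it (adjusted p = 0.307). The fit without that library called 2419 of 19711 genes tested. FOS, JUN, JUNB, EGR1 and IER2 were then at 0.95, 1.09, 1.00, 1.55 and 0.51, NR4A1 at 0.018, KLF2 at 2.29, KLF4 at -0.10 and KLF6 at 0.82. Without control ATRA 3, FOS, EGR1, IER2 and NR4A1 turned to -0.45, -0.70, -0.072 and -0.12. Of the 4 libraries with KLF2 above 90 CPM, control ATRA 1, 2 and 3 held KLF2 at 101, 136 and 221 CPM with CYP26A1 at 256, 0.052 and 12.4 CPM, and untreated control 1 held KLF2 at 93.0 CPM with CYP26A1 at 0.0267 CPM.

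In knockout cells KLF2 stayed low with ATRA, at 6.06, 3.55 and 7.80 CPM, against 5.90, 5.76 and 1.16 CPM without it, a log2 fold change of 0.43 ± 1.10 (adjusted p = 0.939, edgeR). FOSB was the 1 of 10 genes whose groups did not overlap, with 3.62, 4.08 and 3.99 CPM with ATRA and 2.35, 1.41 and 0.942 CPM without it. Its log2 fold change of 1.31 ± 0.64 did not pass the test (adjusted p = 0.461, edgeR), and such a separation was seen in 31.9% of all genes tested. The other 8 genes overlapped, with log2 fold changes from -0.48 for KLF4 to 0.58 for EGR1. None of the 10 genes passed the edgeR test, 0 had an unadjusted p under 0.05 and 0 were called by DESeq2 or limma-voom, beside 0.0314% of all genes tested, 0.0261% higher and 0.00523% lower. The interaction, which asks whether the effect of ATRA differed between genotypes, was called for 0 of 10 genes, with 0 at an unadjusted p under 0.05 and 0 by DESeq2 and limma-voom. Over all genes it was called for 0%, with 1868 genes at an unadjusted p under 0.05 and 13 called by DESeq2. For KLF2 the interaction was -1.78 ± 1.54 (adjusted p = 0.689, edgeR), and -5.27 without untreated control 1 (adjusted p = 0.0449). The fit without untreated control 1 called the interaction for 135 of 19748 genes tested. The median log2 fold changes of the 10 genes were 0.17 in knockout cells and 0.69 in control cells, beside 0.019 and -0.037 over all genes tested.

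Within groups, these genes moved widely and often in the same library. EGR1 differed 3.45-fold between the highest and the lowest knockout library with ATRA, 15-fold among control libraries with ATRA, 8.11-fold among untreated knockout libraries and 4.63-fold among untreated control libraries. The ratio of the highest to the lowest library was above the 90th percentile of genes of at least 5 CPM for 6 of 10 genes in knockout cells with ATRA (percentile at 1.92-fold) and 3 in control cells with ATRA (3.38-fold). It was above that percentile for 7 in untreated knockout cells (1.82-fold) and 3 in untreated control cells (3.32-fold). These counts include FOSB, whose mean of 2.34 CPM was below 5 CPM, at 10.6-fold in control cells with ATRA and 2.5-fold in untreated knockout cells. Knockout ATRA 2 held the lowest value of its group for 8 of 10 genes, all but FOSB and KLF4, beside 44.8% of genes of at least 5 CPM. Control ATRA 3 held the highest value of its group for 8 of 10, beside 34%, and untreated control 1 for 7 of 10, beside 39%. Untreated knockout 3 held the lowest value of its group for 9 of 10, all but KLF4, beside 36.4% of genes. Knockout ATRA 2 and untreated knockout 3 were also the knockout libraries with the lowest summed stromal markers, 2810 and 3060 CPM, and the highest summed pluripotency markers of their groups, 3700 and 8720 CPM. Whether cell makeup had a part in these levels was not tested.

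**Figure D3:**
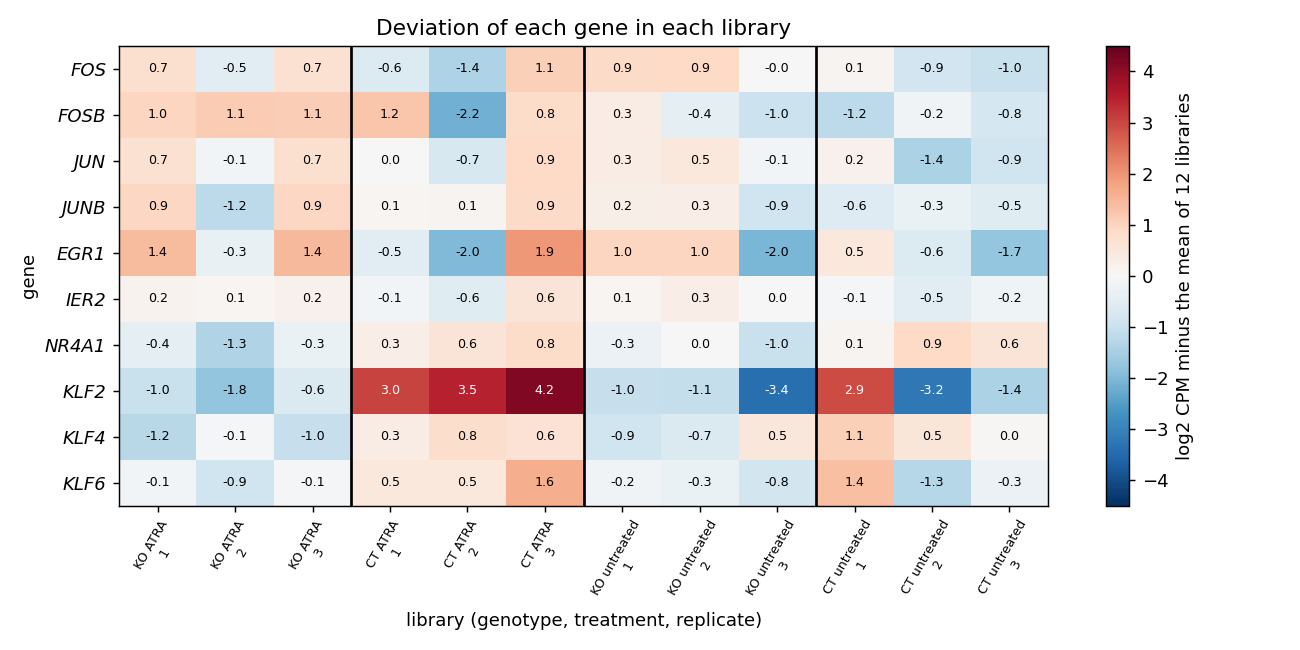
Log2 CPM of each of the 10 genes minus its mean over 12 libraries, per library, with knockout ATRA, control ATRA, untreated knockout and untreated control libraries from left to right and the value printed in each cell. KLF2 stands high in the 3 control ATRA libraries and in untreated control 1, and EGR1 is lowest in knockout untreated 3 and control ATRA 2.

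The genes closest in pattern were sought among 11415 genes of at least 5 CPM, by the root mean square difference of log2 CPM, each gene centred on its mean over 12 libraries. FOS was nearest to PPP1R15A, an early stress gene that recruits a phosphatase, at 0.265, then RASSF5 at 0.309 and AFAP1L2 at 0.339, beside a median of 0.931 over all candidates. PPP1R15A had 67.2, 34.0 and 65.6 CPM in knockout and 25.8, 14.0 and 52.3 CPM in control libraries with ATRA, and 81.4, 76.5 and 39.9 CPM in knockout and 36.0, 14.4 and 20.3 CPM in control libraries without it. Like FOS, it was lowest in the second library of both ATRA groups. EGR1 was nearest to PDGFB at 0.659, TNFAIP3 at 0.666 and NCALD at 0.678, beside a median of 1.40. KLF4 was nearest to LFNG at 0.203, ALPL at 0.212 and SHANK2 at 0.220, beside a median of 0.812. ALPL, the tissue-nonspecific alkaline phosphatase used to stain pluripotent cells, had 52.0, 120 and 51.6 CPM in knockout and 144, 150 and 167 CPM in control libraries with ATRA. Without ATRA it had 70.2, 70.8 and 122 CPM in knockout and 201, 155 and 153 CPM in control libraries, so it shared with KLF4 the high knockout ATRA 2 and untreated knockout 3. These likenesses describe the same 12 libraries, which differed in depth, genotype and treatment.

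Relatives of the 10 genes and the pathway above them were read from lists of known genes. Of 9 other AP-1 family genes tested, 0 were called with ATRA, and 3 were higher and 1 lower in untreated knockout cells than in untreated control cells. Over all genes tested, 7.51% were called with ATRA (3.27% higher, 4.24% lower) and 34.9% untreated (13% higher, 21.9% lower), and the counts of this and the following lists are to be read beside these shares. ATF3, a stress-induced partner of JUN, averaged 110 ± 16 CPM in untreated knockout cells and 41.4 ± 9.05 CPM in untreated control cells (SD, n = 3 each), a log2 fold change of 1.40 ± 0.33 (adjusted p = 0.00864, edgeR). JDP2, a repressor of AP-1, was at 0.93 (adjusted p = 0.00766) and ATF2 at -1.34 (adjusted p = 0.0135). ATF2 lost its call without untreated control 3 (-1.19, adjusted p = 0.0536) or knockout 2 (-1.30, adjusted p = 0.0567), and with the GC trend removed it was at -0.061. Of 7 other EGR, NR4A and IER genes, 0 were called in either knockout comparison by edgeR.

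Of 12 other KLF family genes tested, 0 were called higher, and 1 was lower in knockout cells with ATRA, beside 7.51% of all genes called. That gene, KLF8, had 1.57, 4.11 and 1.96 CPM in knockout libraries with ATRA, against 7.29, 20.8 and 9.54 CPM in control libraries with ATRA. Its log2 fold change was -2.30 ± 0.58 (adjusted p = 0.034, edgeR), and it lost its call without control ATRA 2 (-1.73, adjusted p = 0.12), knockout ATRA 1 (-2.05, adjusted p = 0.14) or knockout ATRA 3 (-2.14, adjusted p = 0.144). It also lost it with the GC trend removed (-1.84, adjusted p = 0.0719), with the replicate block (-2.30, adjusted p = 0.06) and with the compared groups only (-2.31, adjusted p = 0.0565). With ATRA, 10 of the 12 log2 fold changes were below 0 and their median was -0.59, and without it 8 were below 0 and their median was -0.32. KLF7, named after its values were seen, had the same high untreated control library as KLF2 and KLF6. It had 40.7, 38.1 and 54.7 CPM in control libraries with ATRA and 62.7, 10.0 and 10.2 CPM in untreated control libraries, and 8.82 to 18.2 CPM over the 6 knockout libraries.

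Of 27 other early response genes, 4 were higher and 0 lower in knockout cells with ATRA, and 9 were higher and 2 lower in untreated knockout cells, beside 7.51% and 34.9% of all genes called. GADD45B, a growth arrest and DNA damage gene, averaged 69 ± 7.51 CPM in untreated knockout cells and 16.9 ± 1.55 CPM in untreated control cells (SD, n = 3 each), a log2 fold change of 2.03 ± 0.31 (adjusted p = 0.00258, edgeR). NFKBIA, the inhibitor of NF-kappaB, was at 1.27 (adjusted p = 0.00594), MCL1, which blocks apoptosis, at -0.76 (adjusted p = 0.0121) and TIPARP at -0.91 (adjusted p = 0.0165). With ATRA, GADD45B was at 1.31 (adjusted p = 0.0248, edgeR) and DUSP4, a phosphatase that switches off mitogen-activated kinases, at 1.68 (adjusted p = 0.039). Without control ATRA 2 they were at 1.03 (adjusted p = 0.0542) and 1.28 (adjusted p = 0.0698). Leaving out 1 library at a time kept GADD45B between 1.03 and 1.6 with ATRA, called in 2 of 6 fits, and DUSP4 between 1.28 and 2.49, called in 1 of 6. With the compared groups only both lost their call (adjusted p = 0.0751 and 0.0992), and DUSP4 also with the replicate block (1.73, adjusted p = 0.0689). In untreated cells GADD45B and NFKBIA stayed called in 6 of 6 such fits, MCL1 in 5, all but that without knockout 2 (-0.73, adjusted p = 0.0544), and TIPARP in 3, the others being those without control 3 (-0.79, 0.0641), knockout 2 (-0.89, 0.0651) and knockout 3 (-0.87, 0.0522). With the GC trend removed both calls were lost, MCL1 at -0.37 (adjusted p = 0.181) and TIPARP at -0.27 (adjusted p = 0.379). The list's median log2 fold change was 0.30 with ATRA, with 16 values above 0 and 11 below. Without ATRA it was 0.69, with 19 above and 8 below. The list was drawn up for early response genes, and whether a shared signal lay behind these values was not tested.

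Of 22 kinases and factors that act upstream of these genes, 0 were called with ATRA, and 3 were higher and 6 lower in untreated knockout cells, beside 13% and 21.9% of all genes. MAPK7, known as ERK5, was at 1.11 (adjusted p = 0.00811, edgeR), and its activator MAP2K5 at -1.12 (adjusted p = 0.00644). MAPK3, known as ERK1, was at 0.58 (adjusted p = 0.0164), and MAPK8, a JUN kinase, at -1.38 (adjusted p = 0.00232). Once the GC trend was removed, MAPK8 was at -0.19 (adjusted p = 0.635) and MAPK3 at 0.28 (adjusted p = 0.193), and with the block added MAPK7 was at 0.78 (adjusted p = 0.0546). MAPK3 also lost its call without control 3 (0.57, adjusted p = 0.053), knockout 1 (0.58, adjusted p = 0.0534) or knockout 2 (0.53, adjusted p = 0.0742). Of 9 heat shock genes, which report general stress, 1 was higher and 0 lower in knockout cells with ATRA, and 2 were higher and 2 lower in untreated knockout cells. HSPA1A was at 1.69 with ATRA (adjusted p = 0.00718, edgeR) and at 1.38 without it (adjusted p = 0.00532), and reads of its near-identical copy HSPA1B make its count uncertain. In untreated cells the co-chaperone BAG3 was at 0.86 (adjusted p = 0.0163), the mitochondrial chaperone HSPD1 at -1.75 (adjusted p = 0.00721) and the cytosolic chaperone HSP90AA1 at -1.65 (adjusted p = 0.0238). All 3 lost their call with the GC trend removed, BAG3 at 0.48 (adjusted p = 0.101), HSPD1 at -0.60 (adjusted p = 0.0669) and HSP90AA1 at -1.33 (adjusted p = 0.0758). BAG3 also lost its call without knockout 2 (0.89, adjusted p = 0.0502) or knockout 3 (0.77, adjusted p = 0.0541), and HSP90AA1 lost it in 5 of 6 such fits, all but that without control 1, with values of -1.33 to -1.71. With the near-identical knockout libraries summed, GADD45B, MAPK8 and HSPA1A were the 3 of 15 genes named here from the related lists that stayed called in untreated cells, and the other adjusted p-values were 0.0507 to 0.101 (edgeR). With ATRA, 0 of 4 stayed called, with adjusted p-values of 0.0641 to 0.192. The knockout and control comparisons with ATRA and without it share no libraries. They were fitted together with a shared estimate of the spread and use the same knockout line, so they are not independent. The ATRA comparisons called 0 genes of any of these lists by edgeR.

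**Figure D4:**
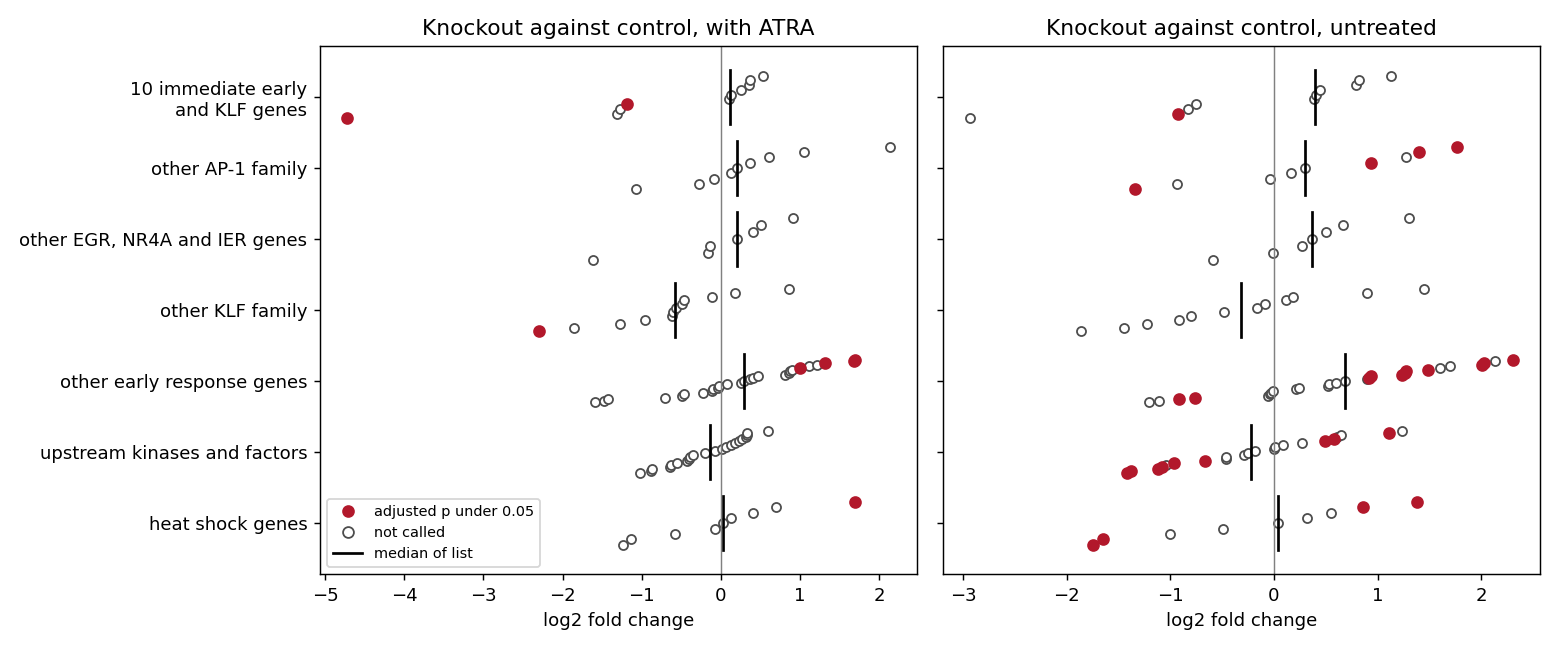
Log2 fold changes, knockout over control, of the 10 genes and of the genes of each related list, with ATRA on the left and untreated on the right. Each point is a gene, filled red points have an adjusted p under 0.05, and black bars are list medians; the other KLF family has its median below 0 in both panels, at -0.59 with ATRA and -0.32 untreated.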

How the data were processed

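RNA-seq libraries of 12 NT2/D1 samples were analysed from 1 table. Its values are raw read counts per gene symbol as deposited by the authors, with a deposited gene length in bases. Per the submitters' processing notes, bcl2fastq, TopHat2, Subread featureCounts and DESeq2 were used with the hg19 (GRCh37) build. Versions, annotation release and strand setting are not stated there. CPM was computed from library sizes scaled by TMM, and RPKM from CPM and the deposited length. Genes passing edgeR's filterByExpr (minimum count 10) were tested with edgeR 4.0.16 (R 4.3.3) by quasi-likelihood, with TMM scaling and 1 coefficient for each of 4 groups over 12 libraries. Benjamini-Hochberg adjustment ran over all 19130 genes, and an adjusted p under 0.05 was called. Adjusted p-values in the text are from this edgeR fit unless another tool is named. The standard error was the size of the coefficient divided by the square root of F, and intervals are 95%. The common biological coefficient of variation was 0.367. Alternatives used DESeq2 1.42.0, limma 3.58.1 (voom), relative log expression scaling, other filters, a replicate block, removal of a GC trend (GC of 97.9% of genes of at least 5 CPM), summed near-identical libraries and each library left out. The script was tested on simulated counts with 100 genes changed 4-fold and 100 changed 2-fold. In comparisons of groups, edgeR recovered 42 to 48% of the 4-fold and 1 to 4% of the 2-fold changes. For the interaction it recovered 17% and 0%. False calls numbered 0 to 3 by edgeR and 23 to 53 by DESeq2. A gene not called may therefore still differ 2-fold or more.

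The 10 genes and all lists were chosen with earlier results of these data known. Genes outside the 10 were named by a rule: up to 2 called higher and 2 called lower of each list and comparison, by smallest adjusted p, and the 3 nearest patterns to FOS, EGR1 and KLF4. CYP26A1, HOXB1, RARB, DHRS3, KLF7 and LGALS1 were chosen after their values were seen.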

Additional observations from a re-analysis of the deposited data

How the results depend on the processing

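The replicate numbers did not pair the samples: correlations of same-numbered deviations ran from -0.59 to 0.512 for knockout and from -0.263 to 0.308 for control libraries across ATRA treatment. With the replicate number as a block, 0 of 10 genes were called in both knockout comparisons, against 1 untreated and 2 with ATRA, and the counts over all genes were 5772 and 761, against 6676 and 1437. In untreated knockout against control cells, 0 of the 10 were called with relative log expression scaling or with near-identical libraries summed, 2 with DESeq2 or without a filter, and 0 to 2 with 1 library left out. With ATRA the count was 1, KLF2 each time and not NR4A1, with relative log expression scaling, limma-voom, a filter of over 1 CPM or the compared groups only. It was 4 without a filter, 3 with DESeq2 (NR4A1, KLF2 and KLF4) and 3 with the GC trend removed, 0 with the GC trend removed together with the block or with libraries summed, and 0 with any 1 library left out. In control cells, 0 to 2 genes were called for ATRA with 1 library left out, and 0 to 1 for the interaction. Alternatives chosen after seeing the data left out untreated control 1 with control ATRA 3, or untreated knockout 3 with knockout ATRA 2. The first called 3 of the 10 untreated, 1 with ATRA and 1 for ATRA in control cells, and the second called KLF4 alone, both untreated and with ATRA, and neither NR4A1 nor KLF2.

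NR4A1 kept its sign in 18 of 18 settings in both knockout comparisons, and KLF2 in 18 of 18 with ATRA. Those groups did not overlap and the settings refit the same libraries, so the kept sign is no separate support. NR4A1 was called in 8 of these settings untreated and in 3 with ATRA, and KLF2 in 8 with ATRA. With the control pair left out, untreated KLF2 was at 0.56 and KLF6 at 0.29, and for ATRA in control cells FOS was at -0.030, EGR1 at -0.0014 and NR4A1 at -0.32. With the GC trend removed and the block, untreated FOSB was at -0.086, JUNB with ATRA at -0.0039, and KLF6 for ATRA in knockout cells at -0.020. JUNB with ATRA was at -0.13 by limma-voom and -0.17 with libraries summed. For ATRA in control cells NR4A1 was at -0.011 with over 1 CPM, -0.13 with the GC trend removed and -0.13 with block and GC; KLF4 was at -0.015, -0.066 and -0.12 in the same 3 settings and -0.048 with the block. For ATRA in knockout cells IER2 was at -0.0024 with the compared groups only and -0.012 with the knockout pair left out.

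With 1 library left out, untreated values ranged over -0.0038 to 0.72 for FOSB, -3.50 to 0.56 for KLF2 and -1.18 to 0.30 for KLF6. With ATRA they ranged over -0.039 to 1.40 for FOS, -0.052 to 0.81 for JUN, -0.19 to 0.52 for JUNB, -0.14 to 2.13 for EGR1 and -0.10 to 0.52 for IER2. For ATRA in control cells they ranged over -0.45 to 0.99 for FOS, -0.70 to 1.75 for EGR1, -0.072 to 0.51 for IER2, -0.16 to 0.21 for NR4A1 and -0.21 to 0.30 for KLF4. For ATRA in knockout cells they ranged over -0.47 to 0.076 for FOS, -0.039 to 0.11 for IER2, -0.50 to 0.0056 for NR4A1, -0.0052 to 0.73 for KLF2, -0.92 to 0.085 for KLF4 and -0.071 to 0.32 for KLF6. Of the 378 values of named genes outside the 10 and of PRMT6, 378 kept their sign and 303 were called. These genes were named because they were called in the same libraries, so the kept signs were largely fixed by that choice. The 303 include PRMT6, the deleted gene, called in 18 of 18 settings in each knockout comparison. Genes called over the whole table with ATRA were 2964 by DESeq2, 2317 without a filter, 768 in the compared groups and 71 with libraries summed, against 1437; untreated, they were 3314 with the GC trend removed, 2593 with the block too and 1072 with libraries summed, against 6676. For ATRA in control cells DESeq2 called 1636 and edgeR 22. The causes were not tested. Precision was set by 3 libraries a group, and values under 3 counts, or 0.0433 to 0.128 CPM, were not resolved.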

Other observations

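LGALS1, which encodes a galectin and was chosen after its values were seen, was the gene nearest in pattern to KLF2. The root mean square difference was 1.16 on the log2 scale over 12 libraries, beside a median of 2.44 over all candidates. LGALS1 had 19.4, 5.49 and 19.2 CPM in knockout libraries with ATRA, against 189, 376 and 228 CPM in control libraries with ATRA. It had 35.6, 35.5 and 17.6 CPM in untreated knockout libraries, against 168, 26.9 and 35.7 CPM in untreated control libraries. As for KLF2, KLF6 and KLF7, untreated control 1 held the highest value of the untreated libraries.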
